A study of Drosophila melanogaster with 66 samples.

Results

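The 69 Drosophila melanogaster genes whose symbol starts with mRpL or mRpS and a number, which encode proteins of the large and small subunit of the mitochondrial ribosome, were described in whole adult flies. They were taken from the probe sets annotated with a single gene symbol, and where several probe sets named the same gene, the brightest on average stood for it. This gave 44 genes named mRpL and 25 named mRpS among 11982 genes with a symbol and 17104 entries in all. The letter L or S stands for the large or small subunit, and genes were sorted by this letter alone. All 69 passed the filter on low values in each sex. Their RefSeq chromosome arms were 2L for 12 genes, 2R for 10, 3L for 17, 3R for 19 and X for 11.

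The mitochondrial ribosome translates the few messenger RNAs of the mitochondrial genome, which encode membrane subunits of the respiratory chain and of ATP synthase. Its proteins are all made in the cytosol from nuclear genes and imported, where they join ribosomal RNAs transcribed inside the organelle. Many descend from bacterial ribosomal proteins, while others, such as mRpL39, mRpL50 and mRpL54 of the large subunit, have no bacterial counterpart.

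The study profiled total RNA on 66 Affymetrix arrays, 32 of female and 34 of male flies, in 20 groups of 3 or 4 arrays. Flies were raised at 25 °C, each sample came from a mating of 150 males and females, and RNA of a pool of whole flies was extracted, so that organs are not separated and fewer cells of a type cannot be told apart from less RNA per cell. The founders, labelled F0 test, had the genotype rpr/cyo; dilp3/ser, in which GAL4 under ilp3 regulatory sequences drives the cell death gene rpr from a UAS construct to ablate the insulin-producing cells, over the balancer chromosomes CyO-YFP and Ser-GFP. Their F1 offspring by mothers of the w1118 background were profiled as rpr/+; dilp3/+ (both constructs), rpr/+; ser/+ (the UAS-rpr construct alone with the Ser balancer), cyo/+; dilp3/+ (the ilp3-GAL4 construct alone with the CyO balancer) and cyo/+; ser/+ (both balancers and no construct). Flies of the control lineage, labelled F1 control and of genotype w1118, were the comparison group for founders and F1 flies alike, although the series' design text names the F0 rather than the F1 controls as profiled. The F2 test flies were fathered by rpr/+; ser/+ F1 males, the F3 test flies by F2 test males, and both carried no construct or balancer and have the genotype w1118, like the F2 and F3 controls. All lines shared the w1118 background, and no age was taken from the labels.

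In the F1 controls marker genes followed the labelled sex. The mean of 18 ovary and egg markers was 9.85 to 11.58 on the female arrays and 3.26 to 3.74 on the male arrays, and that of 22 testis markers was 3.14 to 3.41 and 8.28 to 8.88. Female arrays carrying replicate number 2 stood apart. In the F2 control group that array had an ovary marker mean of 5.77, against 11.58 and 11.53 on the other arrays, and in the F2 test group it had 7.83, against 11.59 and 11.55. In all 8 female groups of 3 arrays, the array numbered 2 was the lowest both in ovary markers and in the mean level of the 69 mRp genes. Among males, the F2 control array numbered 3 had an ovary marker mean of 8.86, against 3.24, 3.36 and 3.33 on the other F2 control males. Its testis and accessory gland marker means, 8.63 and 11.78, lay within the range of those males, and its mean mRp level was 7.42, against 7.41, 7.70 and 7.10.

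The mean level of the mRp genes was higher on every female array than on any male array. Values are log2 levels, on a scale whose floor was 2.2305. Averaged over the 69 genes, the group means were 8.30 to 8.94 in females and 7.16 to 7.44 in males. In F1 control females the mean over genes was 8.72, 8.26 and 8.81 on the 3 arrays (8.60 ± 0.30, SD, n = 3). In F1 control males it was 7.29, 7.17 and 7.02 (7.16 ± 0.14, SD, n = 3). The highest male value was 7.70, on an F2 control array, and the lowest female value 8.01, on the rpr/+; ser/+ array numbered 2.

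**Figure D1:**
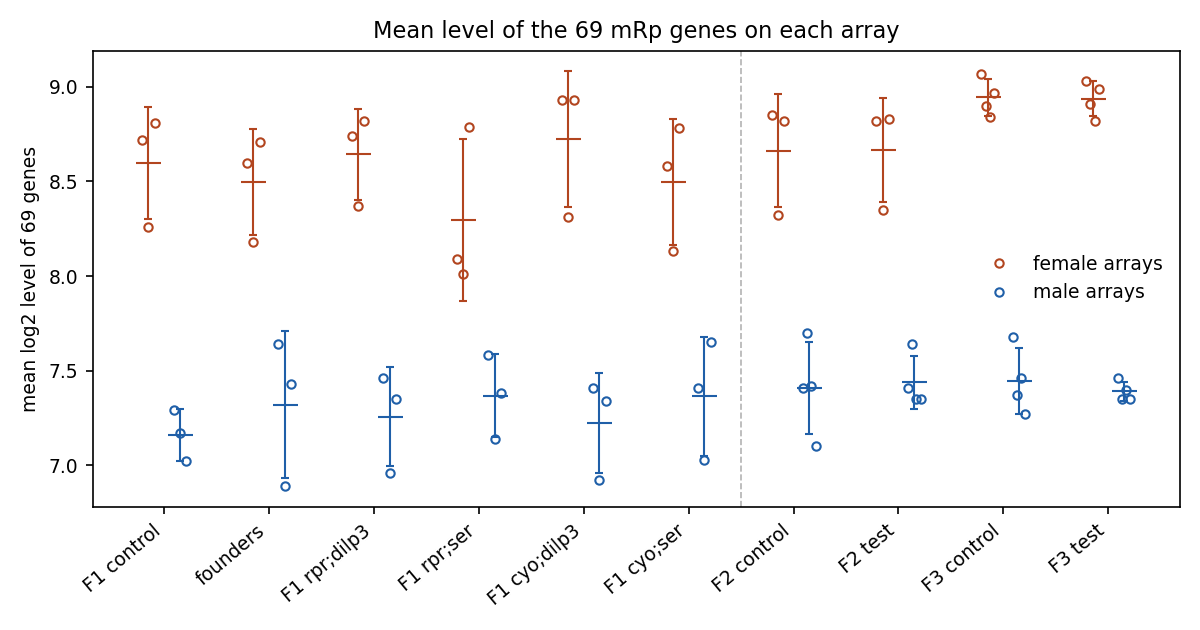
Mean log2 level of the 69 mRp genes (vertical axis) on every array, by group (horizontal axis), with females in red and males in blue. Bars are the group mean ± SD over 3 or 4 arrays, and the dashed line separates the F0 and F1 arrays from the F2 and F3 arrays; female arrays lie at 8.01 or above and male arrays at 7.70 or below.

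Levels of different genes come from different probe sets and are not compared with each other. mRpS5, a small-subunit protein with a bacterial homolog, ranged from 9.88 to 12.16 in females (median 11.54) and from 9.41 to 11.43 in males (median 11.16), so that the sexes overlapped. mRpS2, the homolog of bacterial S2, ranged from 6.23 to 7.74 in females (median 7.39) and from 3.94 to 6.22 in males (median 5.41), without overlap. mRpL19 reached down to 3.70 on 1 female array, with a female median of 7.72 and males from 4.37 to 6.73 (median 5.91). Across the 20 groups the range of group means was widest for mRpL39, at 3.67, and narrowest for mRpL28, at 0.66. Within a sex, after the group and batch means were removed, the genes moved together from array to array. The median correlation between pairs of mRp genes was 0.34 over the 32 female arrays and 0.44 over the 34 male arrays, and 84.1% and 93.5% of the 2346 pairs were positive. The median correlation of mRp genes with other entries was 0.02 in each sex; all pairs share the same libraries, and these values are descriptive.

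The sex difference was tested in control flies, which carry no construct, separately in F1, F2 and F3. In F1 controls 64 of the 69 genes were called lower in males and 0 higher, by limma's moderated test at an adjusted p under 0.05 over 13281 entries. Of all entries, 30.7% were called lower in males. The median change of the mRp genes was -1.40, a 2.64-fold lower level in males, while the median over all entries was -0.06. In F2 controls 66 genes were called lower, beside 33.4% of entries, with a median change of -1.31. Without the male array numbered 3, which had ovary markers, 66 were called, with a median of -1.34. In F3 controls 64 were called lower, beside 34.9%, with a median of -1.35. None was called higher in F2 or F3 controls. Over the mean of all groups, all 69 were called lower in males, beside 44.0% of entries, with a median of -1.33.

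The difference spanned mRpL and mRpS genes alike. In F1 controls 41 of 44 mRpL genes were lower in males, with a median of -1.55. Of the mRpS genes 23 of 25 were lower, with a median of -1.30. Genes ranked similarly in the control sets: across the 69 genes the F1 and F2 control values correlated at r = 0.88, the F1 and F3 values at 0.89 and the F2 and F3 values at 0.95. These are descriptions across genes of 3 sets of arrays that share no library but come from the same fit.

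The widest difference belonged to mRpL39, a large-subunit protein without a bacterial counterpart. In F1 control females its log2 level was 8.98, 8.26 and 8.99, and in males 5.41, 5.93 and 5.64. In F3 control females it was 9.60, 9.18, 9.18 and 9.36, and in males 6.28, 6.0, 5.53 and 5.93. The sexes did not overlap in any group, and over all arrays the lowest female value was 7.76 and the highest male value 7.23. The male minus female change of mRpL39 was -3.00 ± 0.39 (SE) in F1, -2.46 ± 0.37 in F2 and -3.13 ± 0.35 in F3 controls, with limma adjusted p of 8.2e-09, 2.1e-07 and 8.9e-11.

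Next in F1 controls came mRpL44, which carries an RNase III-like fold (-2.64 ± 0.34, adjusted p = 6.5e-09 in limma). It stood at 9.11, 8.25 and 8.91 in females and at 4.84, 6.94 and 6.64 in males, and without the male array at 4.84 the change was -1.92 (limma adjusted p = 2.4e-06). Other genes far apart were mRpL11, part of the stalk base of the large subunit (-2.51 ± 0.32, 4.1e-09), mRpL50 (-2.28 ± 0.35, 3.5e-07), mRpL1, of the mobile L1 stalk (-2.24 ± 0.27, 1.2e-09), and mRpL54 (-2.14 ± 0.30, 5.3e-08). Of the mRpS genes, mRpS18A, a homolog of bacterial S18 (-2.18 ± 0.30, 2.9e-08), and mRpS2 (-2.03 ± 0.36, 4.4e-06) were the furthest apart. The change of mRpL44 was smaller in the later control sets, at -1.55 ± 0.32 in F2 and -1.89 ± 0.30 in F3, and whether it differed between the sets was not tested. mRpL21 changed by -2.11 in F2 and -2.23 in F3, mRpL19 by -1.83 and -2.10, and mRpS35 by -1.76 and -2.09. mRpL32 was among the 8 widest in F2 alone, at -1.82, and mRpL12, the stalk protein homologous to bacterial L7/L12, among those in F3 alone, at -2.15.

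The smallest p of the 69 genes in F1 controls was that of mRpS29, the homolog of the human GTP-binding protein DAP3. In F1 control females mRpS29 stood at 9.16, 8.80 and 9.16 and in males at 7.33, 7.18 and 7.19. The groups lay more than 1 log2 unit apart, and the change was -1.75 ± 0.18 (limma adjusted p = 2.7e-11). In F2 and F3 controls it was -1.62 ± 0.17 and -1.57 ± 0.16.

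A few genes did not follow. mRpL28, a large-subunit protein with a bacterial homolog, had nearly the same level in both sexes: 9.66, 9.29 and 9.17 in F1 control females and 9.11, 9.20 and 9.08 in males. In F3 controls the females were at 9.37, 9.34, 9.61 and 9.37 and the males at 9.51, 9.37, 9.54 and 9.31, so that the groups overlapped. Its change was -0.25 ± 0.19 in F1, -0.02 ± 0.18 in F2 and 0.03 ± 0.17 in F3 (limma adjusted p = 0.274, 0.975 and 0.94), with 95% intervals of -0.63 to 0.12, -0.38 to 0.33 and -0.31 to 0.37. Over the mean of all groups mRpL28 was -0.12 ± 0.06 (adjusted p = 0.0469). mRpL24 and mRpS5 also passed in none of the control sets, with F1 values of -0.33 ± 0.37 and -0.40 ± 0.37, though both were called over the mean of all groups. mRpL48 and mRpS9 did not pass in F1, and mRpL41 and mRpL51 did not pass in F3.

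**Figure D2:**
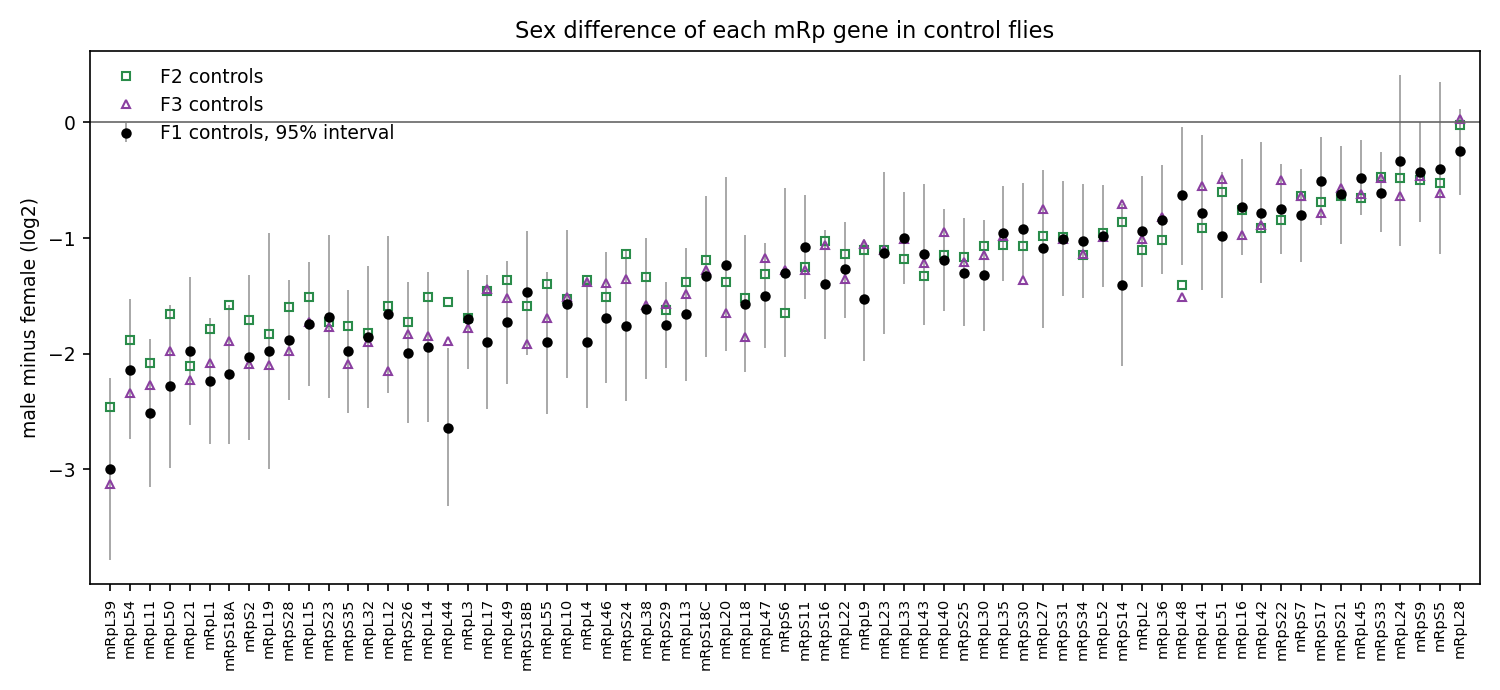
Male minus female log2 change (vertical axis) of each of the 69 mRp genes (horizontal axis, ordered by the change over the mean of all groups) in F1 controls (black, with the 95% interval of the fit), F2 controls (green squares) and F3 controls (purple triangles). mRpL39 lies lowest, at -3.00 in F1 controls, and mRpL28 nearest to 0, at -0.25.

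For 21 of the 69 genes every one of the 32 female arrays lay above every one of the 34 male arrays, beside 7.21% of the 13281 entries tested. Besides mRpL39 and mRpS29 these included mRpL33, with females from 9.41 to 10.43 (median 9.96) and males from 8.25 to 9.33 (median 8.76). They also included mRpL11, with females from 6.39 to 8.29 and males from 4.50 to 6.34. Within each labelled batch, a label whose laboratory step is not given, the direction was the same. Of the 69 genes, 69, 68, 68 and 69 had a lower mean in males in batches 1 to 4. The mean of all male arrays minus that of all female arrays of the batch had medians of -1.29, -1.57, -1.10 and -0.97. Groups are not matched between the sexes there. In batch 4 the 2 female arrays are of rpr/+; ser/+ and cyo/+; dilp3/+ flies, and the 4 male arrays are of other groups. Across the 10 pairs of male and female groups between 65 and 69 genes were lower in males. The lowest count, 65, and the smallest median, -0.91, were those of the rpr/+; ser/+ flies.

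The female F2 arrays with low ovary markers were also set against the males. On the F2 control array numbered 2 the mRp genes had a median level 0.49 log2 units below the other F2 control females (-0.49), and 59 of 69 were below both other arrays. On the same array 68 of 69 were above all 4 F2 control male arrays, with a median 0.92 above the male mean, against 1.40 for the other F2 control females. These males include the array with ovary markers at 8.86, and against the other 3 the count was 68 of 69 and the medians were 0.92 and 1.44. On the F2 test array numbered 2, 60 of 69 were below both other female arrays and 69 of 69 were above all F2 test males, by a median of 0.98 against 1.35. These counts were made for the mRp genes alone and not over all entries. They therefore do not show whether the pattern is particular to the mRp genes. Without the F2 control array numbered 2, 63 of 69 genes were called lower in F2 control males, with a median of -1.36. Other markers were shifted on both female arrays. The flight muscle mean was 13.44 on the F2 control array numbered 2, against 11.71 and 10.94 on the other control females, and 13.14 on the F2 test array, against 11.77 and 10.83. The fat body mean was 11.50, against 9.71 and 8.86, and 11.73, against 9.72 and 8.83. The part of ovary content or of the other markers in the sex difference was not tested.

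Genes with 2 probe sets gave similar values on both. For mRpS11 the male minus female difference of means over all arrays was -1.35 on the probe set used and -1.15 on the other. For mRpL47 it was -1.40 and -1.66. Probe sets shared with another gene were left out, as for mRpS10 and mRpL53.

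Other genes of mitochondrial gene expression differed between the sexes in the same direction. The lists are read beside 30.7% of all entries called lower in F1 control males and 21.3% called higher. tko and bonsai, which encode small-subunit proteins homologous to bacterial S12 and S15 and lie outside the 69 by name, were lower in F1 control males by limma's test (-1.84 ± 0.28, adjusted p = 2.2e-07, and -1.53 ± 0.27, adjusted p = 5.2e-06). Of 10 translation factors 6 were lower and 2 higher, with a median of -1.28. The smallest p were those of the ribosome recycling factor mRRF1 (-2.54 ± 0.27), the elongation factor mEFG1 (-2.55 ± 0.36) and the elongation factor mEFTu1 (-1.40 ± 0.27). Of 14 mitochondrial aminoacyl-tRNA synthetase genes, which charge transfer RNAs, 10 were lower and 2 higher, with a median of -1.39. TrpRS-m was higher in males (2.39 ± 0.31), while SerRS-m (-2.76 ± 0.37) and LeuRS-m (-2.41 ± 0.41) were lower.

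Genes of mitochondrial transcription and genome maintenance had a median of -2.16 in F1 controls. There 9 of 10 were lower in males and 0 higher, beside 30.7% and 21.3% of all entries. In F2 controls 10 of 10 were lower, with a median of -1.72, beside 33.4% of all entries. In F1 controls they were led by the single-strand DNA-binding protein mtSSB (-3.86 ± 0.41) and the termination factor family member mTerf5 (-2.91 ± 0.37). With them came mtDNA-helicase, which unwinds the mitochondrial genome (-4.34 ± 0.57). Of 9 genes of mitochondrial RNA handling 8 were lower in F1 control males, with a median of -1.48, beside 30.7% of all entries. Among them were bsf, the homolog of human LRPPRC (-2.34 ± 0.28), the RNA-degrading enzyme PNPase (-2.42 ± 0.40) and CG31643 (-2.55 ± 0.45).

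The subunits of the respiratory chain, which work beside the products of mitochondrial translation, did not show this direction. Of 76 nuclear-encoded oxidative phosphorylation genes, paralogs of subunits included, 25 were higher in F1 control males and 0 lower, with a median of 0.36. Among all entries 21.3% were called higher. How many of the 25 are paralogs was not counted. In F2 controls 23 were higher and 0 lower, with a median of 0.27, beside 19.1% of entries. In F3 controls 54 were higher and 0 lower, with a median of 0.78, beside 27.5% of entries. The smallest p were those of COX4L, COX6CL and SdhBL (7.12 ± 0.19, 6.77 ± 0.21 and 6.91 ± 0.22), which are paralogs of the general subunits. Of 41 entries named as cytosolic ribosomal proteins, paralogs and "-like" genes included, 29 were lower and 5 higher in F1 control males. Beside them, 30.7% of all entries were called lower. The median of this list was -0.39, closer to 0 than the -1.40 of the mRp genes. RpL10Aa (5.89 ± 0.20), RpS28-like (4.55 ± 0.19) and RpL22-like (3.93 ± 0.31) were higher in males. Beside these values, 16 of 18 ovary and egg markers were lower in F1 control males (median -8.33). Of 21 tested testis markers 15 were higher and 1 lower (median 8.15). Higher too were 10 of 10 accessory gland markers (median 9.26), 5 of 8 flight muscle markers (median 1.61) and 1 of 6 fat body markers (median -0.04). Their part in the results of these lists was not tested.

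**Figure D3:**
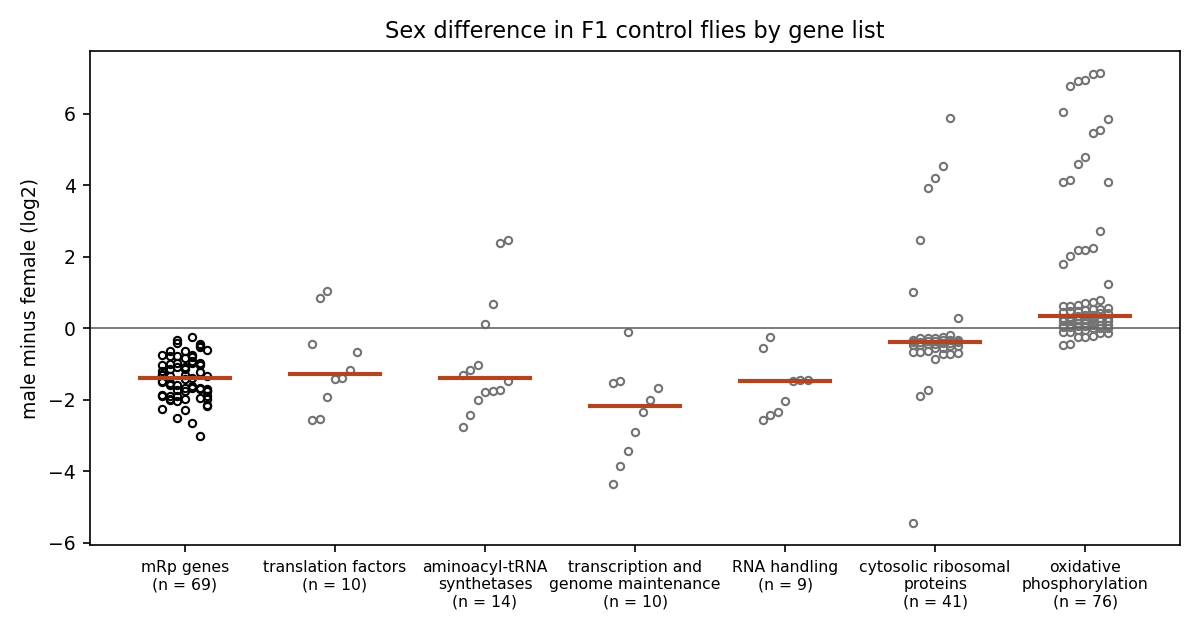
Male minus female log2 change in F1 control flies (vertical axis) of every tested gene of 7 lists (horizontal axis, with the number of genes), and the list median as a red line. The mRp genes have a median of -1.40 and none lies above 0, whereas the oxidative phosphorylation genes have a median of 0.36.

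Founders with ablated insulin-producing cells were compared with the F1 controls to ask whether the family responded in the flies themselves. A single mRp gene was called in each sex, the same one, mRpS28. In females 0.828% of 12809 entries were called, and in males 3.43% of 11357. The median change of the 69 genes was -0.00 (rounded to 2 decimals) in females and 0.22 in males, beside -0.00 and -0.03 over all entries, and 34 and 52 of the 69 changes were above 0. In founder females 1 of 6 fat body markers fell (list median -0.98) and 1 of 18 tested testis markers rose, while 0 of 18 ovary markers (median 0.81) and 0 of 8 flight muscle markers (0.08) were called. In founder males 1 of 10 accessory gland markers rose (median -0.10), and 0 of 12 ovary, 0 of 21 testis, 0 of 8 flight muscle and 0 of 6 fat body markers were called (medians -0.03, -0.04, 0.10 and -0.18). Their part in the founder values was not tested. The founder effect did not pass a test of a difference between the sexes for any of the 69, with a median male minus female value of 0.36 and 0.120% of 13281 entries called. Closest were mRpS29 (0.74 ± 0.26, limma adjusted p = 0.592), mRpL44 (1.30 ± 0.49, 0.656) and mRpL32 (0.99 ± 0.44, 0.911). The value of mRpL44 was 0.54 without the control male array at 4.84.

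mRpS28 encodes a small-subunit protein, and its gene lies on 2R, an arm of the second chromosome, of which CyO is a balancer form. Its level in F1 control females was 8.29, 8.01 and 8.65, and in founder females 9.04, 8.60 and 9.33. Founder females lay higher than the control of the same replicate number by 0.75, 0.59 and 0.68, and the groups overlapped at the founder array numbered 2. In F1 control males it was 6.32, 6.48 and 6.32, and in founder males 7.43, 6.62 and 7.65. All founder males lay above all control males, with the array numbered 2 close to them. The fitted change of mRpS28 was 0.91 ± 0.18 in females (limma adjusted p = 0.0111) and 0.97 ± 0.24 in males (adjusted p = 0.0191).

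Both calls depended on single arrays. In females mRpS28 lost its call without the founder array numbered 2 (0.73, adjusted p = 0.0653) and without the control array numbered 2 (0.79, 0.0504). In males it lost its call without any 1 of 5 arrays, with values of 0.80 to 1.01 and adjusted p of 0.0523 to 0.13, the founder array numbered 2 being the exception. The founder females lie in batches 2, 2 and 3 and their controls in batches 1, 1 and 2. The founder array in batch 3 is the one numbered 2, and outside rpr/+; ser/+ and cyo/+; dilp3/+ all female arrays of that batch carry this number. Without the batch term in the limma fit the female change was 0.67 (adjusted p = 0.771), and with the replicate number as a block it was 0.85 ± 0.17 (adjusted p = 0.0105). That block added mRpL18, a large-subunit gene, which fell in founder females by the blocked fit (-0.85 ± 0.19, adjusted p = 0.0232, with 3.26% of entries called) but not by the unblocked one (-0.74, adjusted p = 0.341).

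The F1 flies, which share their control arrays with the founders, allow carriers of either second chromosome to be compared. In females the carriers of the CyO balancer had mRpS28 levels of 9.16, 8.39 and 9.28 (cyo/+; dilp3/+) and 9.08, 8.16 and 9.31 (cyo/+; ser/+). Their sisters with the UAS-rpr chromosome had 8.39, 8.19 and 8.49 (rpr/+; dilp3/+) and 8.03, 7.93 and 8.49 (rpr/+; ser/+). At every replicate number, both CyO groups were at or above both UAS-rpr groups except at number 2, where cyo/+; ser/+ at 8.16 lay just under rpr/+; dilp3/+ at 8.19. In males the CyO carriers had 6.94, 6.81 and 7.38 (cyo/+; dilp3/+) and 6.62, 6.49 and 7.67 (cyo/+; ser/+). Their brothers had 6.55, 6.10 and 6.41 (rpr/+; dilp3/+) and 6.98, 6.47 and 6.57 (rpr/+; ser/+), so that the male groups overlapped.

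The contrast of the 2 CyO groups with the 2 UAS-rpr groups does not subtract the control arrays and was added after the data had been seen. The control arrays and those of F2 and F3 still enter its fit, through the batch terms and the estimate of the spread. In females mRpS28 was higher in CyO carriers by 0.81 ± 0.12 (limma adjusted p = 0.00211), and it was the sole mRp gene called, beside 0.234% of entries. With the replicate block the value was 0.70 ± 0.11 (adjusted p = 0.00668). Without the batch term it was 0.64 and did not pass (adjusted p = 0.812). On the F0 and F1 arrays alone it was 0.79 and on the compared groups alone 0.64. It passed in neither, with an adjusted p of 0.221 in the first. In males it was 0.43 ± 0.17 and did not pass (adjusted p = 0.504), with 0 mRp genes and 0.229% of entries called. An unadjusted p under 0.05 was found for 2 mRp genes, and for 802 of all 11357 entries. Flies with both constructs and no balancer did not differ detectably from the control at mRpS28. Their values minus the control of the same number were 0.10, 0.18 and -0.16 in females and 0.23, -0.38 and 0.09 in males. Those of rpr/+; ser/+ flies, which lack CyO too, were -0.26, -0.08 and -0.16 in females and 0.66, -0.01 and 0.25 in males. In F2 test females, which lack the balancer, mRpS28 lay at 8.31, 7.38 and 8.30, and in F2 control females at 8.26, 7.25 and 8.34. The chromosome that carries UAS-rpr and the CyO balancer are alternatives in these F1 flies, so an effect of the one and of the other cannot be told apart in that contrast. The cause of the mRpS28 levels was not tested.

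**Figure D4:**
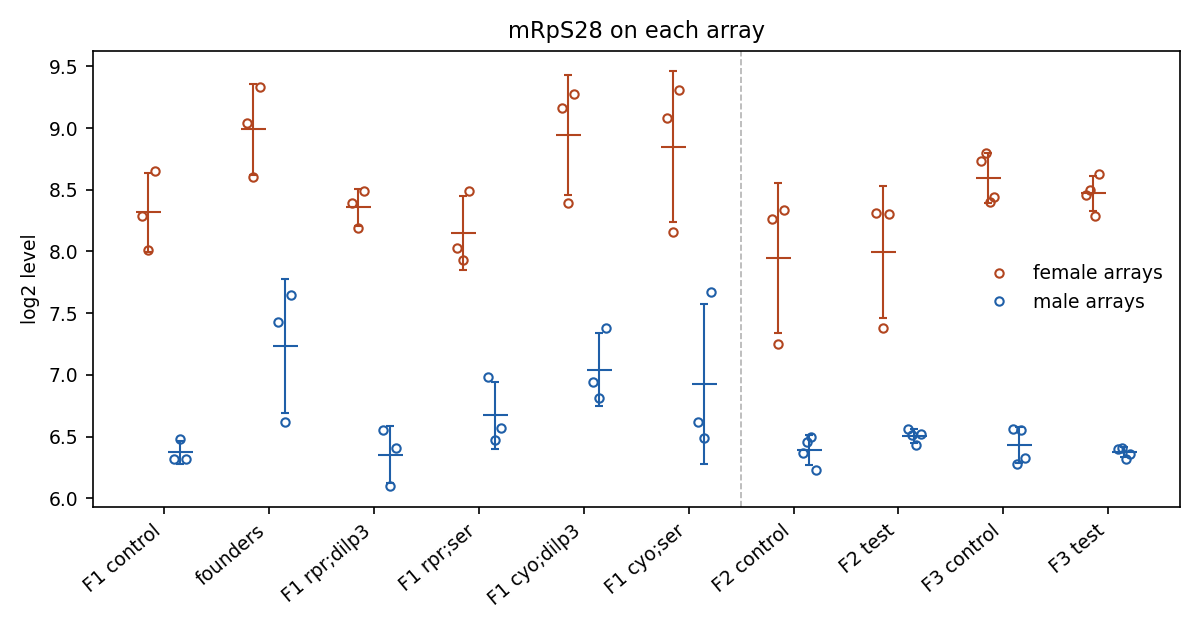
Log2 level of mRpS28 (vertical axis) on every array, by group (horizontal axis), with females in red and males in blue and bars for the group mean ± SD over 3 or 4 arrays. Founders and both groups with the CyO balancer (cyo) lie highest in each sex, with means of 8.85 to 8.99 in females against 8.32 in the F1 control. The balancer-free rpr;dilp3 group and the F2 test group lie near their controls. For the rpr;ser group the mean difference from the control is -0.17 in females and 0.30 in males.

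Across the remaining F1 comparisons the family gave few calls that held. In rpr/+; dilp3/+ flies, which have both constructs, 0 of 69 genes were called in females (0.117% of entries called, 1 mRp gene with an unadjusted p under 0.05) and 0 in males (0.220%, 2 genes). Of all entries, 579 of 12809 in females and 625 of 11357 in males had an unadjusted p under 0.05. The smallest p in females were those of mRpS29 (-0.34 ± 0.13, limma adjusted p = 0.906), mRpL3 (-0.26 ± 0.15) and mRpS25 (0.22 ± 0.13), and in males those of mRpS33 (0.38 ± 0.15, adjusted p = 0.671), mRpL14 (0.56 ± 0.26) and mRpS26 (0.44 ± 0.22). In cyo/+; ser/+ females 0 were called (0.180% of entries, 4 genes unadjusted), with mRpS28 (0.81 ± 0.17, adjusted p = 0.0568), mRpL45 (0.66 ± 0.16, 0.0932) and mRpL11 (-0.56 ± 0.25, 0.681) closest. The unadjusted p was under 0.05 for 868 of all 12809 entries. With the replicate block mRpS28 (0.68 ± 0.15, adjusted p = 0.0231) and mRpL45 (0.68 ± 0.19, adjusted p just under 0.05) passed, beside 4.93% of entries.

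In males 0 genes were called in rpr/+; ser/+ (0.484% of entries, 5 genes unadjusted), cyo/+; dilp3/+ (0.282%, 3 genes) and cyo/+; ser/+ (0.396%, 4 genes). Of all 11357 entries, 892, 679 and 1030 had an unadjusted p under 0.05 in these comparisons. Closest in rpr/+; ser/+ males were mRpL2 (0.57 ± 0.23, limma adjusted p = 0.459), mRpS33 (0.34 ± 0.14) and mRpS17 (-0.33 ± 0.15). In cyo/+; dilp3/+ males they were mRpS28 (0.67 ± 0.23, adjusted p = 0.417), mRpS17 (-0.42 ± 0.15) and mRpS26 (0.48 ± 0.21), and in cyo/+; ser/+ males mRpL1 (0.81 ± 0.25, adjusted p = 0.233), mRpL44 (1.11 ± 0.39, and 0.28 without the control array at 4.84) and mRpS28 (0.58 ± 0.23). The replicate block brought mRpL2 past the threshold in rpr/+; ser/+ males (0.57 ± 0.14, adjusted p = 0.0375, 2.10% of entries), and mRpL1 (0.88 ± 0.20, 0.0247) and mRpL40 (0.64 ± 0.15, 0.0258) in cyo/+; ser/+ males (4.14% of entries). Whether any of these genes differs between the F1 genotypes was not tested.

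In females of the remaining genotypes the fitted values and the measured levels disagreed. The fit with the labelled batch called 19 mRp genes higher and 0 lower in rpr/+; ser/+ females (8.55% of entries called), with a median of 0.46, and 39 higher and 0 lower in cyo/+; dilp3/+ females (20.4%), with a median of 0.78. The differences of the group means themselves had medians of -0.27 and 0.13. In the same fit 10 of 18 ovary and egg markers rose in rpr/+; ser/+ females (median 2.50), and 13 rose and 1 fell in cyo/+; dilp3/+ females (median 2.87). Of 8 flight muscle markers 1 and 3 fell (medians -0.76 and -1.25), and of 6 fat body markers 1 fell in each (medians -1.16 and -1.31). Of 18 tested testis markers 0 were called (medians 0.21 and 0.08), and of 10 accessory gland markers 1 rose in each (medians 0.19 and 0.30). The part of these markers in the mRp values was not tested. These groups lie in batches 3 and 4 and share no batch with the F1 control females, which lie in batches 1 and 2. In females the other 4 arrays of batch 3 all carry replicate number 2, and batch 4 holds these groups alone. Outside these groups the batch 3 term is thus estimated from arrays numbered 2, which had the lowest ovary markers of their groups. Without the batch term, with the replicate block, on F0 and F1 arrays alone and on the compared groups alone, 0 mRp genes were called in either genotype. The share of all entries called under these settings is not given here. The counts therefore do not show whether the loss of calls is particular to the mRp genes.

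Among the genes called by the batch fit in rpr/+; ser/+ females were mRpS18C (1.31 ± 0.39), mRpL54 (1.24 ± 0.24), mRpL39 (1.23 ± 0.29), mRpL23 (1.08 ± 0.23), mRpL51 (1.04 ± 0.26), mRpS18A (1.00 ± 0.26), mRpL49 (0.97 ± 0.25) and mRpL50 (0.94 ± 0.23). The measured levels of mRpL39 were 8.74, 7.99 and 9.31 in these females and 8.98, 8.26 and 8.99 in the control, which overlap. In cyo/+; dilp3/+ females they were mRpS28 (1.71 ± 0.22), mRpS18C (1.69 ± 0.39), mRpL39 (1.62 ± 0.29), mRpL21 (1.48 ± 0.43), mRpL54 (1.44 ± 0.24), mRpL49 (1.41 ± 0.25), mRpL15 and mRpS18A (1.39 each). For mRpL39 the measured levels in cyo/+; dilp3/+ females were 9.16, 8.60 and 9.44. Without the control array numbered 2 the batch fit called 1 gene in rpr/+; ser/+ and 21 in cyo/+; dilp3/+ females. Without the control array numbered 3 it called 11, and without the test array numbered 3 it called 9, in rpr/+; ser/+ females.

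**Figure D5:**
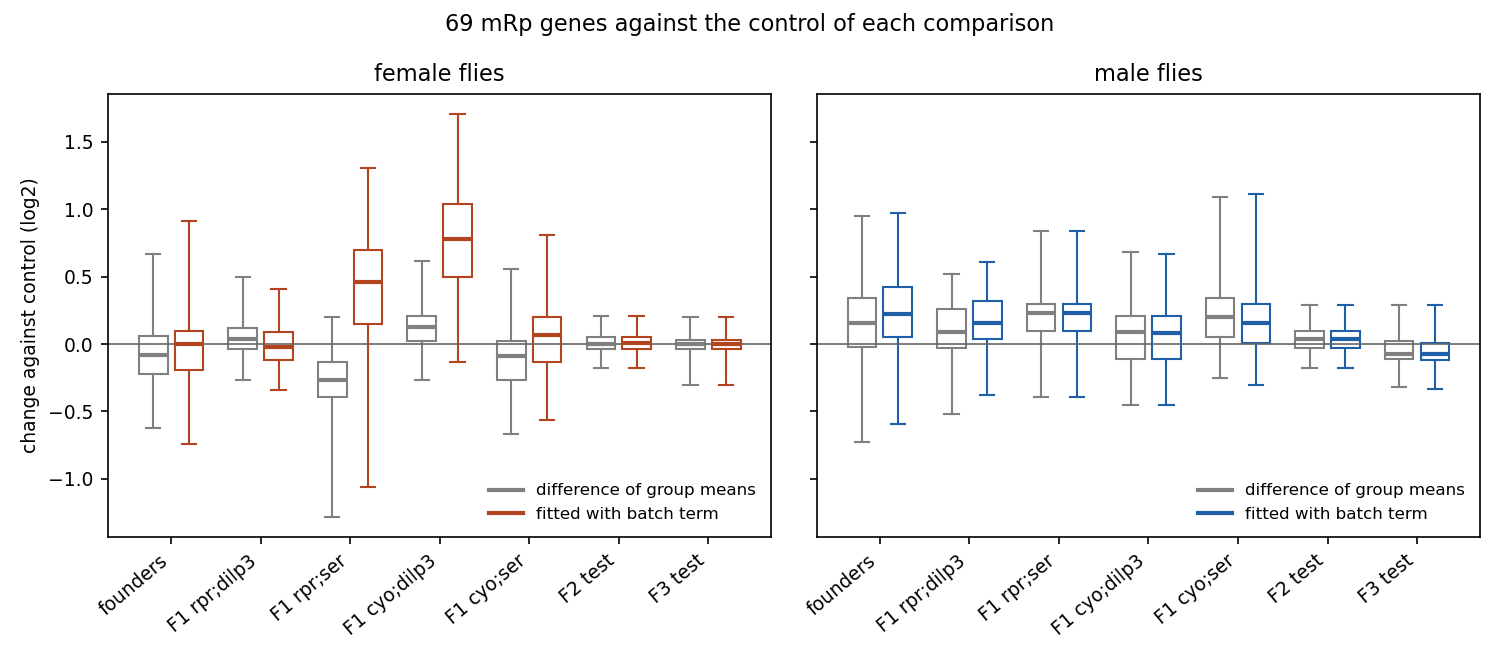
Log2 change of the 69 mRp genes against the control of each comparison (vertical axis) in females (left) and males (right), as the difference of group means (grey) and as fitted with the batch term (coloured). Boxes give the quartiles and median over genes and whiskers the lowest and highest gene; the 2 readings lie furthest apart in rpr;ser and cyo;dilp3 females, where the medians are -0.27 and 0.46, and 0.13 and 0.78.

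Descendants of the founders were compared with the controls of their own generation. No mRp gene was called in F2 females, F2 males, F3 females or F3 males by limma's test, and 0 of the 69 had an unadjusted p under 0.05 in any of them. The share of entries called was 0 in each. Same-numbered arrays deviated together, with correlations of 0.92 to 0.97 in F2 and 0.45 to 0.78 in F3 females. In males the correlations were 0.3 to 0.89 in F2 and 0.34 to 0.49 in F3. The fit leaves this shared part in the spread, which widens its SE and raises its p-values. With the replicate number as a block, 0 mRp genes were called as well, and the share of all entries called in that fit is not given here. The median changes were 0.01 and 0.04 in F2 females and males and 0.00 and -0.07 in F3 females and males. The averaged level of the family was 8.85, 8.32 and 8.82 on the F2 control female arrays and 8.82, 8.35 and 8.83 on the F2 test female arrays. The array numbered 2 was the lowest in both groups. Over all entries, 20 of 12809 in F2 females and 27 in F3 females had an unadjusted p under 0.05. In males it was 97 of 11357 in F2 and 54 in F3.

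The genes closest to the threshold in descendants had small changes, given here with the SE of the unblocked fit. In F2 females they were mRpS29 (-0.12 ± 0.12), mRpS16 (0.14 ± 0.15) and mRpS18A (0.17 ± 0.20), and in F3 females mRpL2 (-0.30 ± 0.19), mRpS16 (-0.11 ± 0.13) and mRpS28 (-0.12 ± 0.15). In F2 males they were mRpL33 (0.24 ± 0.18), mRpL24 (0.16 ± 0.18) and mRpS33 (0.11 ± 0.12), and in F3 males mRpL47 (-0.23 ± 0.17), mRpL18 (0.29 ± 0.22) and mRpS21 (-0.19 ± 0.15). None passed, and a p above the threshold does not show that the levels were equal.

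The other genes of mitochondrial gene expression were also mostly below the threshold in founders. In females 0 genes of the translation factors, synthetases, transcription, RNA handling, cytosolic ribosomal protein and oxidative phosphorylation lists were called. The smallest p in founder females included those of TyrRS-m (0.84 ± 0.26, limma adjusted p = 0.174), mldr (1.25 ± 0.38, 0.176) and mTTF, a mitochondrial transcription termination factor (0.74 ± 0.32, 0.461). In founder males mTTF (1.04 ± 0.19, adjusted p = 0.00225) and Top3alpha, a topoisomerase (1.89 ± 0.39, 0.00495), rose among 10 transcription and maintenance genes. Of 13 synthetase genes AspRS-m fell (-0.99 ± 0.24, 0.0191) and SerRS-m rose (1.10 ± 0.31, 0.0499). Of 75 oxidative phosphorylation genes COX6AL2 (-2.98 ± 0.23, 1.0e-08) and ND-51L2 (-1.85 ± 0.46, 0.0231) fell. The share of all entries called was 3.43% in founder males and 0.828% in founder females. No translation factor, RNA handling or cytosolic ribosomal protein gene was called in founder males.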

How the data were processed

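Whole-fly total RNA was measured on 66 Affymetrix 3' IVT arrays. The authors deposited a log2 level for every probe set on each array, computed with GCRMA per the submitters' processing notes, which give no version of it and also list limma 3.46.0. An array has no read depth; the number of arrays sets the precision. Of 18952 probe sets, 183 controls were left out. Names came from the platform annotation (13647 probe sets with 1 gene symbol, 402 with several, 4720 with none), and chromosome arms from RefSeq, which held all 69 genes. Genes with several probe sets kept the one of highest mean.

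Each sex was fitted with all its groups and the labelled batch (4 batches) in limma 3.58.1 (R 4.3.3), leaving 19 residual degrees of freedom for females and 21 for males; sex differences came from a joint fit with 43. Entries above the 40th percentile of a sex's values (2.5057 in females, 2.6348 in males) in at least 3 arrays were tested: 12809, 11357 and, for both sexes, 13281. Adjusted p-values are Benjamini-Hochberg over all entries tested. Changes are ± SE and levels ± SD. The fits were tested on simulated data. Replicates are described as biological, and p-values measure the spread between these arrays.

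Same-numbered arrays deviated together in all female comparisons (every correlation of deviations at least 0.14) and in some male ones, from the numbers in the labels; blocked values stand beside results they change.

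Named genes were, by rule, the 5 highest and 5 lowest in level (given in part and not ranked, since probe sets differ), called genes (8 of widest change per direction where more than 8), the 3 of smallest p where none was called, the widest and narrowest ranges of group means, and the 3 of smallest p in each mitochondrial gene expression list. Not all of the latter are printed. Other arrays' or genes' values were given where a statement needed them, and those were chosen after values were seen. The members and lists were chosen with earlier results of these data known. After values were seen, lists of ribosome assembly and of mitochondrially encoded genes (0 entries) were dropped and 5 genes (swa, hng3, CG4882, CG13098 and CG4679) were removed from others for uncertain roles. The contrast of CyO with UAS-rpr siblings was added after the data were seen. Plots were made in Python 3.11.15 with matplotlib 3.10.9.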

Additional observations from a re-analysis of the deposited data

Results flagged for a closer look

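In groups of 4 arrays, a gene's highest or lowest array was compared with its neighbour by Dixon's ratio for each gene named in the text. Of 240 tests 7 stood out, while chance flags about 1 in 20. In F3 control females mRpL28 was high on 1 array at 9.61 (nearest 9.37), mRpS29 was low on 1 array at 9.0 (nearest 9.12) and mRpL2 was high on 1 array at 8.39 (nearest 8.03). In F3 test females mRpS29 was low on 1 array at 8.83 (nearest 9.16) and mRpL47 was low on 1 array at 9.57 (nearest 9.95). These low values of mRpS29 and mRpL47 and the high value of mRpL28 came from arrays numbered 3. In F2 males mRpL3 was low on 1 control array at 5.91 (nearest 6.41), and mRpS25 was high on 1 test array at 8.38 (nearest 7.66).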

How the results depend on the processing

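Between 58 and 68 of the 69 genes were called different between the sexes in each control set under every other setting run, with medians of -1.19 to -1.49, and 60 to 66 in F1, 62 to 66 in F2 and 60 to 64 in F3 controls when single arrays were left out. Quantile normalization moved the median sex difference of all entries to -0.16, -0.22 and -0.16 in F1, F2 and F3 controls, with mRp medians of -1.28, -1.23 and -1.19. Elsewhere the counts of called mRp genes depended on the fit. They are given here without the share of all entries called under each setting. In founder females the count of 1 became 0 without the batch term, on the F0 and F1 arrays alone and on the compared groups alone, and 2 with the replicate block (0 to 1 without single arrays). In founder males it became 3 with the block (mRpS25 and mRpS26 beside mRpS28; the numbers do not pair these samples), 2 with quantile normalization, 0 on the F0 and F1 arrays alone and 0 on the compared groups alone (0 to 3 without single arrays). In rpr/+; ser/+ females 19 and in cyo/+; dilp3/+ females 39 became 0 without the batch term, with the block, on the F0 and F1 arrays alone and on the compared groups alone (1 to 25 and 21 to 45 without single arrays). In cyo/+; ser/+ females 0 became 2 with the block, 2 without the filter and 1 with quantile normalization. The CyO contrast in females went from 1 to 0 without the batch term, on the F0 and F1 arrays alone and on the compared groups alone (1 to 3 without single arrays, 3 without the rpr/+; ser/+ array numbered 3). In males the block gave 1 in rpr/+; ser/+ and 2 in cyo/+; ser/+. The other comparisons stayed at 0 to 0 without single arrays, and the block changed no other call.

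In rpr/+; ser/+ females some rises turned to falls without the batch term and on the compared groups alone: mRpL54 -0.05, mRpL39 -0.06, mRpL51 -0.03, mRpS18A -0.27, mRpL49 -0.15 and mRpL50 -0.26. With the block mRpS18A was -0.17, mRpL49 -0.02 and mRpL50 -0.13. In F2 females mRpS18A, which was not called, ranged from -0.03 to 0.26 without single control arrays, and was -0.03 without the one numbered 2. The cause of these shifts was not tested. With 3 or 4 arrays a group, small changes are not detectable.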
